A study of Mus musculus with 20 samples.

Results

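Keratins Krt4 and Krt79 lie side by side on mouse chromosome 15, and their liver transcripts were followed here with those of 7 other keratins, Krt8, Krt18, Krt7, Krt19, Krt23, Krt20 and Krt80. The members were all non-control probes that the array files name as one of these 9 genes, which gave 10 probes (Krt8 has 2) of 55681 probes for 34741 genes. Krt4 and Krt79 were chosen by their higher values in wild-type livers under estradiol, so their values in any comparison that holds the wild-type estradiol arrays are given as a description. Where the limma fit calls them there, the count is printed and nothing is read from it. Krt8 and Krt18 stand for hepatocytes, and Krt7 and Krt19 for bile duct cells.

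Livers came from ovariectomized mice of 2 genotypes, ERa+/+ (wild type) and ERa-/- (null), bred from the same parents. Ovaries were removed from all mice when they were 4 weeks old. At 9 weeks the mice received placebo (castor oil with 5% ethanol) or 1 mg/kg of the estrogen estradiol (E2) by gavage, and were killed 4 hours later under ketamine and xylazine. The 4 groups of genotype and treatment held 5 animals each, with 1 array per animal, and how the null allele was made was not stated in the labels used. Liver was taken as a piece of whole tissue, so fewer cells of a type and less RNA per cell cannot be told apart.

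Keratins build the intermediate filaments of epithelial cells as obligate pairs of 1 acidic (type I) and 1 basic (type II) chain. Hepatocytes make the simple pair Krt8 and Krt18, and bile duct cells add Krt7 and Krt19. Krt4 is a type II keratin of the layers above the base in lining epithelia such as the esophagus, Krt79 a type II keratin known from the hair follicle and its gland ducts, and both belong to the type II gene cluster that also holds Krt8 and Krt7 and, at its end, the type I gene Krt18. Krt20 marks gut epithelium, Krt23 is a type I keratin, and Krt80 a type II keratin of differentiating epithelia.

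Each level rests on 60-base probes, and the sequences of those for the neighbour pair and for the hepatocyte and bile duct keratins show how far the probes are alike. Sequences and positions are those in the array files, on build mm9. Capitals mark the longest run shared with the Krt4 probe, or, in Krt4, with the first Krt8 probe.
Krt4: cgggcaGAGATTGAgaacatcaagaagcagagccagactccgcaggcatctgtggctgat
Krt8: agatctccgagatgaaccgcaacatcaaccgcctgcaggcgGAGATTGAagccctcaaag
Krt7: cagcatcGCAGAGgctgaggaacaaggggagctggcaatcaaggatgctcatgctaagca
Krt19: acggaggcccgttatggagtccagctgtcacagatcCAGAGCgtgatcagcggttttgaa
The Krt4 and Krt8 probes shared a run of 8 bases, and the Krt4 probe shared 6 with Krt7 and 6 with Krt19. Between Krt4 and Krt79 the longest shared run was 6 bases of 60, and no probes of different members shared more than 8. The Krt4 probe (minus strand) maps to chr15:101750158-101750736, a span of 579 bases for 60 bases of probe. The Krt79 probe (minus strand) lies at chr15:101759764-101759823, so that the starts of both are 9.61 kb apart.

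The Krt79 probe and the second Krt8 probe (chr15:101827138-101827197, minus strand) each hold the letters of a polyadenylation signal, AATAAA, shown in capitals within 30 bases.
Krt79: gtgatgtgtctcAATAAAcaacaactacct
Krt8 second probe: tgtattttctaaAATAAAgcctcagctggc
Krt8 was therefore read at 2 places, by a first probe at chr15:101828827-101828886 and by the second. The remaining probes lie at chr15:101862341-101862400 (Krt18, plus strand), chr15:101253718-101253777 (Krt7, plus), chr15:101180014-101180073 (Krt80, minus), and on chromosome 11 at chr11:100002392-100002451 (Krt19), chr11:99339393-99339452 (Krt23) and chr11:99289776-99289835 (Krt20), all minus.

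For the promoters, RefSeq sequence of the 250 bases before the start of the gene (GRCm38.p6) was at hand for 6 of 9 members; Krt4, Krt19 and Krt80 are not in that table. The 3 promoters of Krt79, Krt8 and Krt18 are shown because they belong to the keratin with the E2 difference and to the hepatocyte pair beside it. Capitals mark the GGTCA motif, a single arm of an estrogen response element.
Krt79 (chr15:101940325-101940574, minus strand): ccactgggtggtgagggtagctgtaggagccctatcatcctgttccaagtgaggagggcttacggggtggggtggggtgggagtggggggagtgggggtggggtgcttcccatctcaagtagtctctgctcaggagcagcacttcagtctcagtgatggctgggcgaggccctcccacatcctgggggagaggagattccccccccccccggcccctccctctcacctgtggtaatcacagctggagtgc
Krt8 (chr15:102004343-102004592, minus strand): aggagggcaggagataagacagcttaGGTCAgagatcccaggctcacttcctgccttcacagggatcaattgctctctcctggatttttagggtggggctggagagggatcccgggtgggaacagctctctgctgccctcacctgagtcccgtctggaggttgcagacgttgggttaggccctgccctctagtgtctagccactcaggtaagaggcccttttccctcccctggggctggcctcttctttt
Krt18 (chr15:102027966-102028215, plus strand): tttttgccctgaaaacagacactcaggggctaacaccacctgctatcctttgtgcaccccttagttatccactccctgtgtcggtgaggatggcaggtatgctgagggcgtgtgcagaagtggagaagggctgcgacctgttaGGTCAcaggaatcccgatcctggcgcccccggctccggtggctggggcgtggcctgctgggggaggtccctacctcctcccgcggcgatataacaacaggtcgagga
GGTCA on either strand was in the promoters of Krt8, Krt18, Krt20 and Krt23, once each, and these letters were not in the windows of Krt79 and Krt7. The full element GGTCANNNTGACC was in none of the 6 windows. Of 32851 promoters in the table, 35.24% held GGTCA and 0.06% the full element. The AP-1 motif TGANTCA was in none of the 6 windows and in 6.75% of all, the Sp1 motif GGGCGG was in Krt7 alone of the 6, with 4 matches, and in 32.74% of all, and TATAAA was in Krt20 alone of the 6 and in 12.37% of all. The full element contains GGTCA, and every motif was searched on both strands.

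Levels below are log2 processed intensities relative to the 75th percentile of the array, and a probe entered the tests if, in 1 group or more, at least 4 of its 5 arrays carried the scanner's flag for a signal well above background. By that rule 9 of the 10 probes and 8 of the 9 members were kept; Krt20 was not. Krt4 passed through the wild-type E2 group alone. Esr1, the gene for estrogen receptor alpha, had a mean level of 0.39 ± 0.25 (SD, n = 5) in wild types and -1.61 ± 0.48 in nulls under placebo, and 0.60 ± 0.41 against -1.63 ± 0.31 under E2. Between 51.6% and 70.0% of an array's spots were well above background, and wild-type E2 animal 1 stood apart with the 70.0%, also with the highest median level of probes that were never above background (-5.56, against at most -5.79 on the other arrays). The changes of Krt4, Krt7, Krt6b and the probes below the filter are given with and without this animal. Hepatocyte markers held the tissue label: Alb had a mean log2 level of 10.65 in wild-type placebo livers, and the summed linear level of the 9 measured markers ran from 4973 to 7009 over the 20 arrays.

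**Figure D1:**
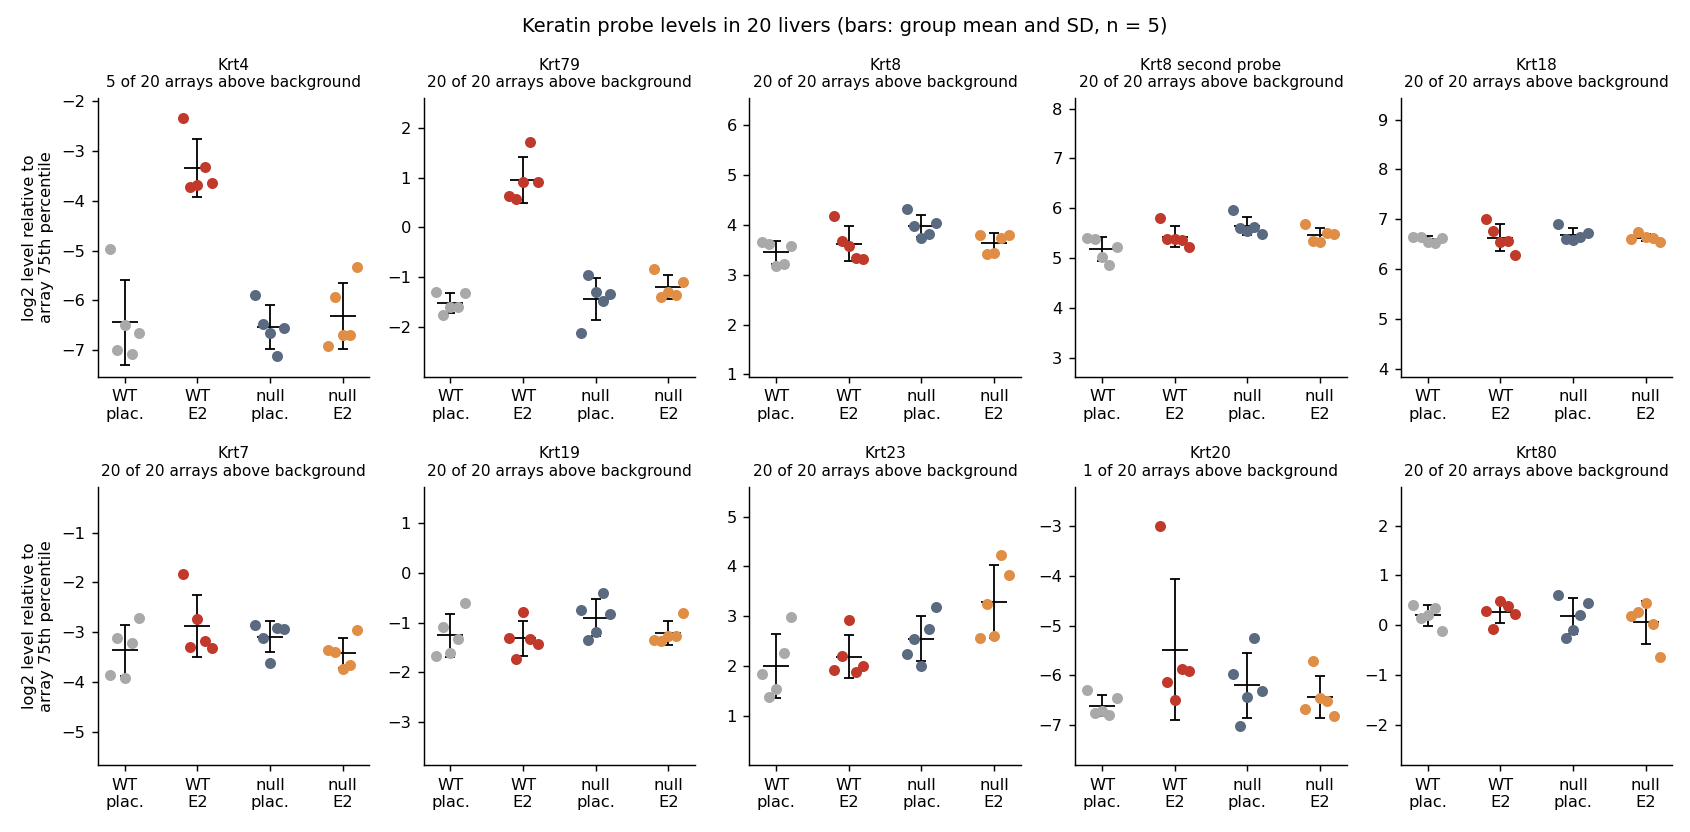
Log2 level of each of the 10 keratin probes relative to the array's 75th percentile (y axis, the same span of log2 units in each panel) in the 20 livers, by genotype and treatment (x axis); points are animals in replicate order, and bars give the mean and SD of 5. Krt4 and Krt79 are higher in the 5 wild-type E2 animals than in the other 15, while in Krt18, Krt7, Krt19, Krt23 and Krt80 the 5 wild-type E2 and 5 wild-type placebo animals overlap. The Krt20 point at -3.00 is wild-type E2 animal 1.

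Krt79 was well above background on all 20 arrays. Its log2 levels were -1.30, -1.76, -1.59, -1.60 and -1.31 in wild-type placebo livers and 0.64, 0.58, 0.92, 1.72 and 0.91 in wild-type E2 livers. Null livers gave -2.12, -0.95, -1.29, -1.48 and -1.33 under placebo and -0.83, -1.39, -1.30, -1.36 and -1.10 under E2. All 5 wild-type E2 values lay above 0 and all 15 others below; 0.968% of all genes were higher without overlap in wild-type E2 than in wild-type placebo livers, and the rule used this contrast. The difference in wild types was 2.47 ± 0.21 (SE) on the log2 scale, or 5.53-fold. In nulls E2 gave 0.24 ± 0.21 (95% interval -0.20 to 0.68), which did not pass the limma test with Benjamini-Hochberg adjustment over 21998 genes (adjusted p = 0.916). Receptor loss under placebo gave 0.08 ± 0.21 (limma, adjusted p = 0.954); this comparison shares the wild-type placebo arrays with the one that chose the gene. As description, the E2 effect of Krt79 was 2.23 ± 0.30 larger in wild types than in nulls, and under E2 nulls were lower than wild types by a log2 difference of -2.15 ± 0.21.

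Krt4 was dim. No array of the wild-type placebo, null placebo and null E2 groups was well above background, against 5 of 5 in wild-type E2 livers. Levels were -4.97, -6.99, -6.49, -7.08 and -6.67 in wild-type placebo livers and -2.34, -3.72, -3.68, -3.33 and -3.65 in wild-type E2 livers. They were -5.90, -6.48, -6.66, -7.12 and -6.55 in null placebo livers and -6.93, -5.93, -6.70, -6.70 and -5.34 in null E2 livers. Every wild-type E2 value was higher than every value of the other groups. In processed intensity the wild-type E2 livers had 24.2 to 71.7 and wild-type placebo livers 2.70 to 10.3.

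Each dim array was set no lower than its dimmest probe well above background. By this floor, Krt4 was 2.94-fold higher in wild-type E2 than in wild-type placebo livers (group mean of -3.34 and a floor of -4.90). Against null E2 livers it was 2.55-fold higher. Without wild-type E2 animal 1 these values were 2.47-fold and 2.15-fold. They are no lower bound across processing settings, since the floor is not a detection limit for Krt4 itself. The fitted log2 change of 3.10 ± 0.39 in wild types is not a bound either, since it uses values under background. Without wild-type E2 animal 1 the fitted change was 2.85. It was 0.58 with normexp background correction and 0.84 in the authors' deposited log2 values on all arrays, both smaller changes than 2.94-fold. In nulls both groups were below background, and no fold is given. Krt4 and Krt79 were the 2 of 8 kept members past an adjusted p of 0.05 for E2 in wild types, where 0.318% of all genes were called; the rule used this contrast, so nothing is read from the count.

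Dim probes as a class also read higher in the wild-type E2 group. Of the 44 keratin probes that were not kept, 40 had a higher mean in wild-type E2 than in wild-type placebo livers, with a median log2 difference of 0.53 and a range of -0.21 to 1.44, the highest being a Krt78 probe. Without wild-type E2 animal 1 the median was 0.07 and 30 of 44 were higher, with the highest at 1.05 (Krt71). The 9587 probes that were above background on no array had medians of 0.29 with and 0.06 without this animal.

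**Figure D2:**
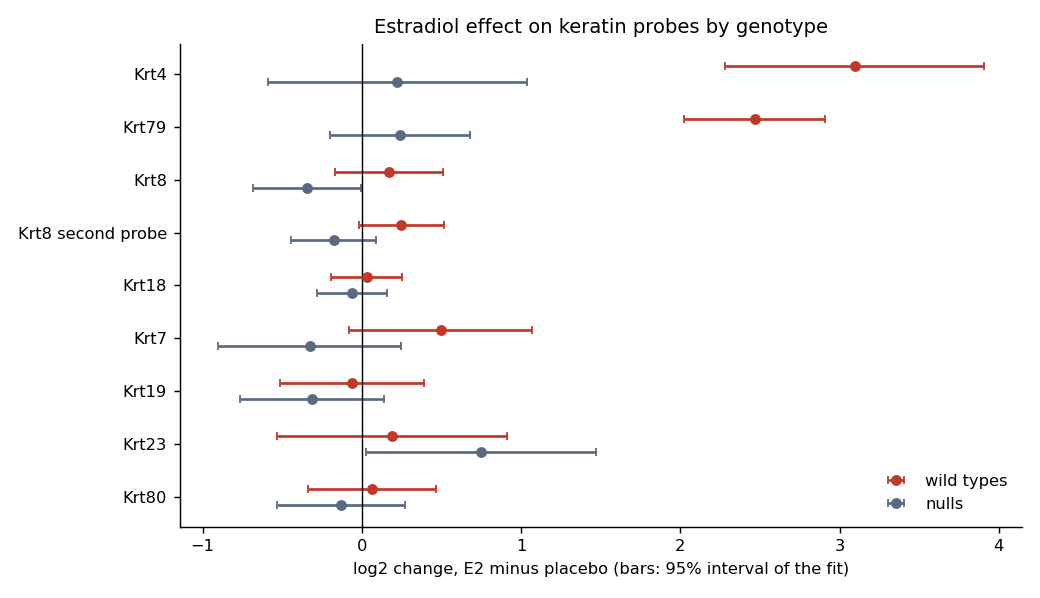
Log2 change, E2 minus placebo (x axis), of the 9 kept keratin probes (y axis) in wild types and in nulls, with 95% intervals of the limma fit to 20 arrays. The wild-type points of Krt4 (3.10) and Krt79 (2.47), which chose these genes, stand to the right; those of the other probes run from -0.06 to 0.49. The Krt4 points use values below background in 3 of the 4 groups.

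The hepatocyte pair, which forms the filaments of the liver's main cells, was bright on all arrays. For Krt18, partner of Krt8, levels were 6.63, 6.65, 6.54, 6.52 and 6.63 in wild-type placebo and 7.00, 6.75, 6.54, 6.57 and 6.27 in wild-type E2 livers. Null livers gave 6.91, 6.61, 6.58, 6.64 and 6.72 under placebo and 6.60, 6.75, 6.65, 6.63 and 6.53 under E2. All 4 groups overlapped. E2 changed Krt18 by 0.03 ± 0.10 in wild types (limma, adjusted p = 0.961; 95% interval -0.19 to 0.25), and the sign turned to -0.19 when arrays were scaled on the median. In nulls the value was -0.06 ± 0.10 (adjusted p = 0.970).

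Krt8, the type II chain of the pair, was measured at its second probe, the brighter one, as 5.41, 5.39, 5.02, 4.87 and 5.23 in wild-type placebo livers. Wild-type E2 livers had 5.79, 5.39, 5.39, 5.36 and 5.22. Null livers had 5.96, 5.60, 5.53, 5.63 and 5.48 under placebo and 5.68, 5.33, 5.32, 5.50 and 5.48 under E2. The 5 null placebo values lay above the 5 wild-type placebo values, and the other groups overlapped.

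Null placebo livers exceeded wild-type ones in Krt8 by 0.46 ± 0.13 at the second probe, 1.37-fold, which did not pass adjustment (limma, adjusted p = 0.224). The first probe gave 0.53 ± 0.16 (adjusted p = 0.275), also with no overlap between the groups, as for 1.2% of all genes in that direction. The second-probe difference was 0.39 to 0.67 within each of the 3 slides that held both groups. No member was called in this comparison, in which 0.0727% of genes were. Bile duct markers were mostly above 0 in this comparison too: 13 of 15, with 0 called by limma and a median of 0.27, against 0.01 over all genes. An unadjusted p under 0.05 was found for 4 of 15 (10.1% of all genes), of which Cftr was lower in nulls (-0.52 ± 0.24). The part of these markers in the Krt8 difference was not tested. E2 gave Krt8 a value of 0.25 ± 0.13 in wild types (adjusted p = 0.623), 0.16 ± 0.12 without wild-type E2 animal 1, and -0.18 ± 0.13 in nulls (adjusted p = 0.879). The first probe had 0.17 ± 0.16 in wild types (adjusted p = 0.808) and -0.34 ± 0.16 in nulls (adjusted p = 0.827). The difference between the effects in wild types and nulls was 0.43 ± 0.18 at the second probe (limma, adjusted p = 0.645). At the first probe this difference was 0.52 ± 0.23 (limma, adjusted p = 0.691).

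The bile duct keratins Krt7 and Krt19, which mark cholangiocytes, were above background on all arrays, Krt7 close to it. Krt7 levels were -3.85, -3.11, -3.92, -3.22 and -2.72 in wild-type placebo livers, -1.83, -3.29, -2.73, -3.18 and -3.32 in wild-type E2 livers, -2.85, -3.12, -3.62, -2.92 and -2.93 in null placebo livers and -3.35, -3.40, -3.74, -3.65 and -2.95 in null E2 livers. Wild-type E2 animal 1 was the highest of all 20, and the groups overlapped. E2 gave Krt7 0.49 ± 0.27 in wild types (limma, adjusted p = 0.651), 0.24 without that animal, and -0.33 ± 0.27 in nulls (adjusted p = 0.913). The Krt7 difference of effects was 0.82 ± 0.39 (adjusted p = 0.673).

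Krt19 levels were -1.68, -1.08, -1.61, -1.32 and -0.60 in wild-type placebo, -1.30, -1.74, -0.78, -1.33 and -1.43 in wild-type E2, -0.74, -1.35, -1.20, -0.40 and -0.82 in null placebo and -1.36, -1.38, -1.28, -1.26 and -0.80 in null E2 livers, overlapping throughout. The E2 effect on Krt19 was -0.06 ± 0.22 in wild types (limma, adjusted p = 0.962; 95% interval -0.51 to 0.39) and -0.31 ± 0.22 in nulls (adjusted p = 0.875). Of 15 bile duct markers 0 passed the test in either direction with either genotype, 1 of 15 had an unadjusted p under 0.05 in wild types, where 8.28% of all genes did, and 4 of 15 in nulls, where 6.06% did. The list's median E2 effect was -0.04 in wild types and -0.32 in nulls, against 0.00 and -0.01 over all genes. The summed linear level of these markers ran from 64.1 to 84.0 in wild-type placebo and 59.3 to 86.4 in wild-type E2 livers. It ran from 45.8 to 90.0 in null placebo and 57.2 to 70.6 in null E2 livers, and its part in the results was not tested. Onecut2 made up most of this sum, with a mean log2 level of 5.95 in wild-type placebo livers, against 2.11 for the next marker, Bicc1. The sum therefore says little about the dimmer markers, Krt7 and Krt19 included.

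Setting the effects beside each other, as a description, the E2 effect in wild types was larger for Krt79 than for Krt8 by 2.22 ± 0.28, than for Krt18 by 2.44 ± 0.28, than for Krt7 by 1.97 ± 0.40 and than for Krt19 by 2.53 ± 0.33 (log2, SE). In nulls the 4 differences of Krt79 from these genes lay between 0.30 and 0.57, with standard errors of 0.28 to 0.40.

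Krt23, a type I keratin, spread most among the bright members. Its levels were 1.83, 1.38, 1.54, 2.26 and 2.99 in wild-type placebo, 1.92, 2.21, 2.93, 1.87 and 2.01 in wild-type E2, 2.25, 2.55, 2.01, 2.75 and 3.18 in null placebo and 2.56, 3.25, 2.61, 4.22 and 3.82 in null E2 livers. Null E2 livers held the 3 highest values, and the groups overlapped. E2 in nulls gave Krt23 0.75 ± 0.35 (limma, adjusted p = 0.820), and nulls exceeded wild types under E2 by 1.10 ± 0.35 (adjusted p = 0.287); neither passed. In wild types E2 gave 0.19 ± 0.35 (adjusted p = 0.916). For E2 in nulls 0 of 8 kept members were called by limma, where 0.00455% of genes were, and 1 of 8, Krt23, had an unadjusted p under 0.05, against 6.06% of all genes.

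Krt80 was between -0.65 and 0.62 on all 20 arrays, with group means of 0.20 ± 0.21, 0.26 ± 0.21, 0.19 ± 0.36 and 0.05 ± 0.42 (SD, n = 5; wild-type placebo, wild-type E2, null placebo, null E2). E2 gave it 0.06 ± 0.19 in wild types and -0.13 ± 0.19 in nulls (limma, adjusted p = 0.953 and 0.963). Krt20 was well above background in 1 of 20 livers, wild-type E2 animal 1, at -3.00; the 4 other livers of that group had -6.12, -6.50, -5.88 and -5.92, and the other 3 groups lay between -7.02 and -5.24. Krt20 was thus not well above background in 19 of the 20 livers.

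Of the 8 kept members, 2 were called for the difference between the E2 effects (0.164% of all genes) and 2 for null against wild type under E2 (0.464%), Krt4 and Krt79 each time; both comparisons hold the wild-type E2 arrays that chose them, so these counts say nothing about the members. The median over the 6 other kept members was 0.13 for E2 in wild types, against 0.00 over all genes, and -0.15 in nulls, against -0.01. For the difference of E2 effects it was 0.22, against 0.02. For null against wild type it was 0.31 under placebo, against 0.01, and 0.02 under E2, against -0.002. For the difference, 4 of 8 kept members had an unadjusted p under 0.05, Krt8 and Krt7 besides the chosen pair (7.39% of all genes). Among the other 45 keratin genes on the array 15 were measured, and limma called 0 of them in any of the 5 comparisons; for E2 in wild types 2 of the 15 had an unadjusted p under 0.05 (8.28% of all genes). The largest change in wild types was 0.91 for the dim Krt6b (adjusted p = 0.340), and 0.94 without wild-type E2 animal 1.

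Chromosomal position was set beside the changes for probes within 600 kb of the Krt4 probe. Of the 48 other kept probes there, limma called 0 for E2 in wild types, where 0.318% of all genes were called. Another count, of an unadjusted p under 0.05, was 3 of 48, against 8.28% of all genes. Both counts are near those shares. Within 200 kb, 22 other probes were present, 13 of them kept, from 9 genes: the keratins Krt73, Krt2, Krt8 and Krt18, the translation initiation factor gene Eif4b, Tns2, Spryd3, Gm9693 and the transcript TC1699452. Their E2 changes in wild types ran from -0.24 (Spryd3) to 0.35 (Krt2). The first probes beyond Krt79 on the side of Krt8 were the 2 for Krt78, 26.4 kb from Krt4, both below the filter, and TC1699452 at 74.4 kb, with 0.06 ± 0.13.

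**Figure D3:**
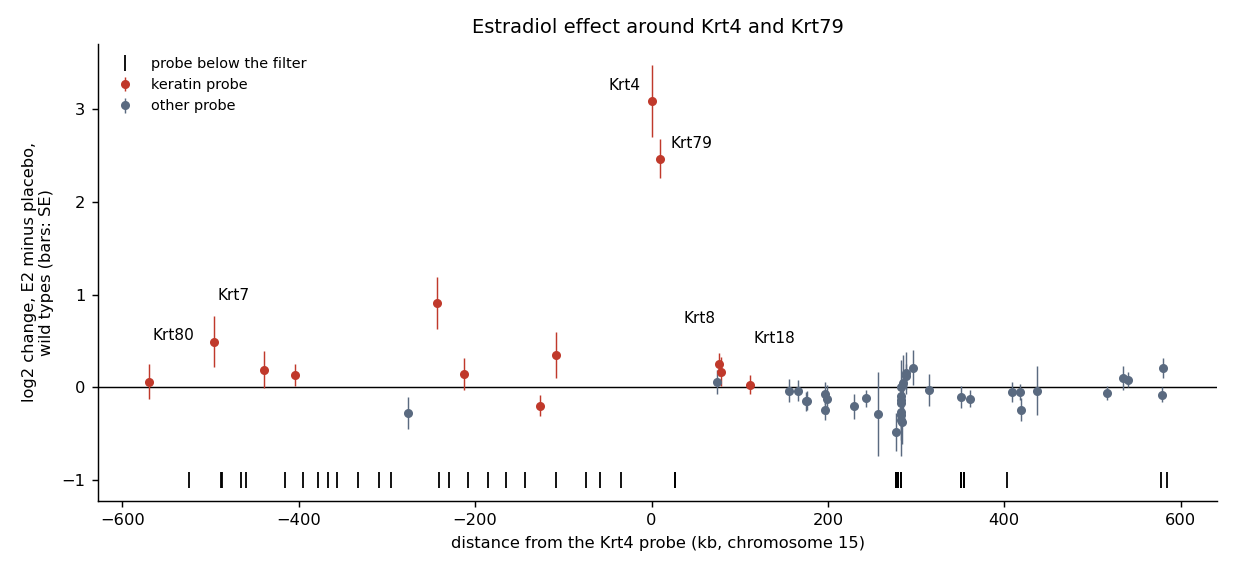
Log2 change with E2 in wild types (y axis, bars show SE) of kept probes against the distance of the probe's start from that of Krt4 on chromosome 15 (x axis, kb); ticks at the bottom mark probes below the filter. Krt4 (3.10) and Krt79 (2.47) stand above the other kept probes within 200 kb, which lie between -0.24 and 0.35.

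Within the slides that held both wild-type groups (3 of 4), the Krt79 difference was 2.21 to 2.91 and that of Krt4 1.32 to 4.07, higher on 3 of 3 slides for both. These arrays chose both genes, so the direction was given beforehand and the values are a description. Each slide held 1 or 2 arrays of a group, and the Krt4 values use placebo levels below background. The smallest Krt4 value came from slide 4, which held placebo animal 1, the placebo liver with the highest Krt4 level, and 1 E2 liver.

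Transcripts with the most similar pattern were ranked by Pearson correlation of log2 levels over the 20 livers, which share the 4 groups. Krt4 followed most closely Slc34a2 (r = 0.94), a sodium-phosphate cotransporter gene, then Gpat3 (0.92), an enzyme gene of glycerolipid synthesis, 9430038I01Rik (0.91), Il17ra (0.91), a cytokine receptor gene, and 2610318M16Rik (0.90). For Krt79 the order was Itpk1 (0.95), an inositol phosphate kinase gene, Asb2 (0.93), Stat5a (0.92), a transcription factor gene, 9430038I01Rik (0.91) and Twnk (0.91), the gene of the mitochondrial helicase. Both keratins were chosen for high values in 1 of the 4 groups, and 15 of the 20 Krt4 values were below background, so the order describes that group's pattern.

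Genes that anchor, modify or clear keratin filaments were counted from lists of their own. These lists were chosen with earlier results of these data known. Their counts, and the p-values of Dsc2 and Tgm2, are therefore given as a description. Among 12 measured genes of desmosomes and hemidesmosomes, the junctions to which keratin filaments attach, 1 was called for E2 in wild types, Dsc2, where 0.318% of all genes were, and 3 of 12 had an unadjusted p under 0.05 (8.28% of all genes). In nulls limma called 0 of 12, and 2 had an unadjusted p under 0.05 (6.06% of all genes). Dsc2, the desmosomal cadherin desmocollin 2, had levels of 1.51, 1.47, 1.43, 1.60 and 1.66 in wild-type placebo and 2.42, 2.32, 2.48, 2.64 and 2.48 in wild-type E2 livers. Null livers had 1.62, 1.56, 1.60, 1.69 and 1.45 under placebo and 1.39, 1.34, 1.65, 1.37 and 1.09 under E2. The wild-type E2 values lay above all others.

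Dsc2 rose with E2 in wild types by 0.94 ± 0.09, 1.91-fold (limma, adjusted p = 1.27e-05), and this effect was 1.15 ± 0.13 larger than in nulls (adjusted p = 0.000174). In nulls E2 gave Dsc2 -0.22 ± 0.09 (limma, unadjusted p = 0.0285, adjusted p = 0.818), so lower null E2 values are part of that difference. With arrays scaled on the median the value in wild types was 0.71 and the call ended (adjusted p = 0.251), as did that for the difference (1.03, adjusted p = 0.486), which also ended with only animals numbered 750 or above (1.20, adjusted p = 0.124). That last setting leaves fewer arrays in every group but wild-type placebo. Under E2 nulls were below wild types in Dsc2, by a log2 difference of -1.10 ± 0.09 (limma, adjusted p = 1.46e-06). The list's median E2 effect in wild types was 0.04, against 0.00 over all genes. No other gene of the list passed the test for E2 in wild types: Pkp2, a plakophilin, had -0.02 ± 0.13, Pkp3 0.10 ± 0.10 and Dsp, desmoplakin, -0.21 ± 0.15.

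Of 18 genes of keratin modification and turnover, Tgm2 alone was called for E2 in wild types (1 of 18, against 0.318% of all genes). An unadjusted p under 0.05 was found for 4 of 18, against 8.28%, and the list's median effect was -0.06. Besides Tgm2 these were all lower under E2. Tgm1, another transglutaminase gene, had -0.62 ± 0.17, Hspb1 -0.78 ± 0.29 and Mapk8 -0.37 ± 0.12 (limma, adjusted p = 0.307, 0.472 and 0.398). Tgm2, a transglutaminase that cross-links proteins, keratins included, had 5.22, 5.26, 5.30, 5.22 and 4.95 in wild-type placebo and 6.78, 6.28, 5.84, 6.25 and 6.10 in wild-type E2 livers. Null livers had 5.64, 4.85, 5.16, 5.28 and 4.88 under placebo and 4.99, 5.04, 4.70, 4.94 and 4.88 under E2. All wild-type E2 livers were above all others. The rise was 1.06 ± 0.16, 2.09-fold (limma, adjusted p = 0.00145), with 1.07 ± 0.15 at its other probe, and the effect was 1.31 ± 0.22 larger than in nulls (adjusted p = 0.0107). The call for the difference ended with slide as a block (1.28, adjusted p = 0.0619) and with only animals numbered 750 or above (1.11, adjusted p = 0.208). Null E2 livers were below wild-type E2 livers in Tgm2 by a log2 difference of -1.34 ± 0.16 (limma, adjusted p = 0.000101). In nulls E2 gave -0.25 ± 0.16 (adjusted p = 0.860). Tgm2 also is in the list of 7 genes of keratin aggregates in hepatocytes. There it was again the 1 called for E2 in wild types (0.318% of all genes). An unadjusted p under 0.05 was found for 2 of these 7 (8.28% of all genes), Tgm2 and Hspb1, which was lower. Sqstm1, a cargo receptor of autophagy, had -0.10 ± 0.10 in wild types and -0.30 ± 0.10 in nulls (limma, adjusted p = 0.818).

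None of 8 measured plakins and linkers and 11 other intermediate filament genes was called by limma for E2 in wild types, and for both lists 0 had an unadjusted p under 0.05. Plec, plectin, had -0.29 ± 0.16, and Vim, vimentin, -0.14 ± 0.16. Markers of other epithelia that a piece of liver could hold were counted too. Of 22 stratified epithelium markers 11 were measured and 0 called by limma in wild types, with 3 of 11 at an unadjusted p under 0.05 (8.28% of all genes), and 6 (Krt17, Krt1, Sprr1b, Sprr3, Dsg1a and Krtdap) were above background on no array. Krt5 and Krt14, which define the base of such epithelia, had E2 changes of 0.15 ± 0.17 and 0.07 ± 0.29. The 3 at an unadjusted p under 0.05 went both ways, with 0.91 ± 0.28 for Krt6b, -0.84 ± 0.32 for Lor, loricrin, and -0.27 ± 0.11 for Krt10 (limma, adjusted p = 0.340, 0.475 and 0.506), and the list's median was -0.10. The summed level of the 11 ran from 13.7 to 17.4 in wild-type placebo and 11.3 to 18.0 in wild-type E2 livers. Trp63 made up most of this sum, with a mean log2 level of 3.27 in wild-type placebo livers, against 0.63 for the next, Krt16. Of 11 mesothelium markers 9 were measured, of 11 gut and gallbladder markers 6 and of 7 pancreas markers 3, with 0 called for E2 in either genotype. The mesothelium list includes the members Krt8, Krt18 and Krt19, so it is not separate from them. Unadjusted, the counts in wild types were 1 of 9, 1 of 6 and 0 of 3, against 8.28% of all genes. In nulls they were 3 of 9, 1 of 6 and 0 of 3, each lower under E2, against 6.06% of all genes.

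**Figure D4:**
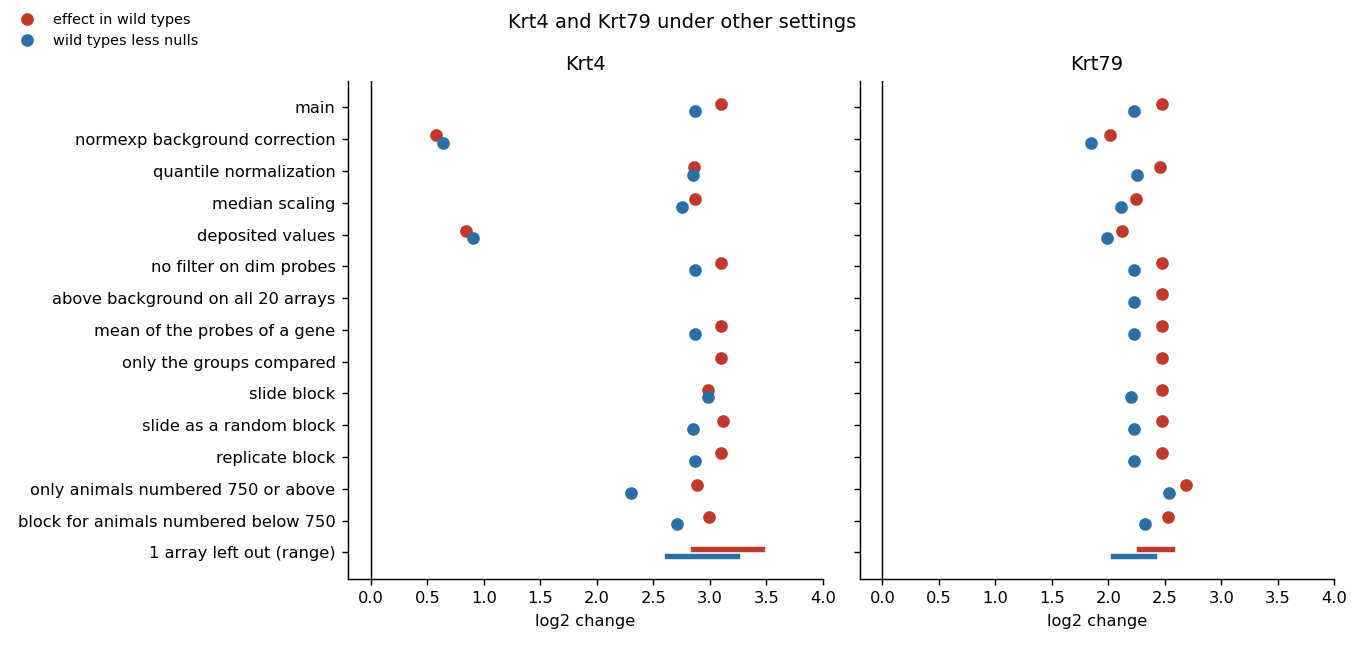
Log2 values of Krt4 and Krt79 (x axis) for the E2 effect in wild types and for its excess over that in nulls, under each processing setting (y axis); bars give the range when 1 array is left out. Krt79 stays between 1.85 and 2.69 throughout, while Krt4 has 0.58 with normexp correction and 0.84 in the deposited values, against 3.10 in the main setting. The normexp setting adds an offset of 50, which makes changes of dim probes such as Krt4 smaller.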

How the data were processed

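Liver RNA from 20 mice was hybridised to 1-colour Agilent arrays, 1 per animal, on 4 slides. Per the file headers, Agilent Feature Extraction 10.10.1.1 gave the deposited intensity of each spot, background-subtracted and detrended within the array, on build mm9. The authors also deposited log2 values for 32526 probes, used as an alternative. Each of its columns followed the log2 mean signal of its own array (correlation 0.9986 to 0.9999) and had a median of 7.85, which settles log2 scale and direction, with no centring of genes seen. The rule by which its probes were picked was not stated in the labels. Limma is named, without a version, in the submitters' processing notes.

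Here, log2 of the processed intensity minus the array's 75th percentile over 59305 non-control spots was used, leaving out spots flagged non-uniform; no spot was saturated. A probe was kept if, in 1 group or more, at least 4 of the 5 arrays flag it as well above background (30961 of 55681). Spots of a probe were averaged, the brightest kept probe stood for its gene (21998 genes), and limma 3.58.1 (R 4.3.3, data.table, version 1.17.8) was fitted to all 20 arrays with 16 residual degrees of freedom. Tests were 2-sided and Benjamini-Hochberg adjusted across genes in each of 5 comparisons, at a threshold of 0.05. SE is that of the fit, and single probes were fitted likewise over all kept probes. For the E2 effect of Krt79 less that of another keratin, the SE came from the residual variance of the per-array differences, without limma. The floor used for Krt4 set each dim array no lower than its dimmest probe well above background. The fit was tested on simulated data. The number of arrays limits the precision.

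Named genes were the 9 members, kept neighbours within 200 kb, the 5 best correlated genes for Krt4 and for Krt79, called genes of 11 lists with some of their bright members, and Esr1. Krt78, Krt71 and Krt6b, as extremes of a range, Sqstm1, Lor, Krt10, Cftr, Tgm1, Hspb1 and Mapk8 were named after their values were seen. The members and lists were chosen with earlier results of these data known.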

Additional observations from a re-analysis of the deposited data

Results flagged for a closer look

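In the 40 sets of 5 livers checked (10 probes in 4 groups), 5 had a liver far from the other 4; chance gives about 1 in 20. Krt4 was at -4.97 in wild-type placebo animal 1, with -6.49 next, and at -2.34 in wild-type E2 animal 1, with -3.33 next. Wild-type E2 animal 1 was also apart at the second Krt8 probe (5.79, next 5.39) and at Krt20 (-3.00, next -5.88). Krt19 was at -0.80 in null E2 animal 5, with -1.26 next. Wild-type E2 animal 1 thus accounts for 3 of the 5, and is the liver whose array had the largest share of spots above background, 70.0%.

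The E2 effect differed between wild types and nulls by 2.87 for Krt4 and by 2.23 for Krt79 (log2), both chosen with the wild-type effect known. For Krt4, 3 of the 4 groups were below background, so that 2.87 is not a measured difference. With normexp and its offset of 50 it was 0.64, which is no measure of its size either.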

How the results depend on the processing

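Of 8 kept members, 2 were called for E2 in wild types, and 1 where a probe had to be above background on all 20 arrays, a filter that takes Krt4 out of the test. For the difference of E2 effects the count fell from 2 to 1 with normexp, without a filter on dim probes, with that stricter filter, with only animals numbered 750 or above and with animals numbered below 750 as a block, and was 1 to 2 with 1 array left out (1 without any one of wild-type placebo animals 2 to 5, wild-type E2 animals 1 and 4, null placebo animals 1, 2, 3 and 5, and null E2 animals 1, 3 and 4). For null against wild type under E2 it was 1 with the stricter filter and with only animals numbered 750 or above. Krt79 was the member called in each of these. Keeping only animals numbered 750 or above leaves fewer arrays in every group but wild-type placebo, so calls lost there also come with smaller groups. Median scaling moved the median of all genes to -0.22 for E2 in wild types, -0.12 in nulls, -0.10 for their difference and 0.11 for null against wild type under E2; the cause of the changed values was not tested. Of 1635 values of single genes under alternatives, 1563 kept their side of the threshold and, apart from a few close to 0 in Krt18, Krt23 and Tgm2, their direction. Another 23 kept direction but no longer passed the threshold.

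The other 49 values, from 15 results, turned in sign, and 0 of these 49 passed the limma threshold. For E2 in wild types Krt18 turned from 0.03 to -0.19 with median scaling, -0.14 with only animals numbered 750 or above and -0.04 with those below as a block (-0.06 to 0.12 with 1 array left out); Krt19 from -0.06 to 0.03 with slide as a block, 0.08 with only animals numbered 750 or above and 0.08 with the animal block (-0.19 to 0.10); and, with median scaling, Krt23 from 0.19 to -0.03 and Krt80 from 0.06 to -0.16 (-0.02 to 0.15 for Krt80). In nulls Krt80 ran from -0.24 to 0.04 with 1 array left out. Krt4, below background in both groups, was at -0.05 with normexp, -0.06 in the deposited values and 0.00 with slide as a block (-0.02 to 0.38). The difference for Krt18 turned from 0.09 to -0.03 with median scaling, -0.06 with only animals numbered 750 or above and -0.01 with the animal block (0.00 to 0.18). Under placebo, null against wild type turned for Krt80 to 0.00 with normexp, 0.02 in the deposited values, 0.02 with slide as a block, 0.13 with only animals numbered 750 or above and 0.03 with the animal block (-0.12 to 0.10). There Krt18 had -0.01 with the animal block, Krt4, again below background, 0.03 with normexp and 0.04 with slide as a block (-0.26 to 0.27), Krt79 ran from -0.04 to 0.25 and Tgm2 from -0.15 to 0.05 with 1 array left out. Under E2, Krt18 had -0.05 with quantile normalization and -0.03 in the deposited values (-0.08 to 0.10), Krt8 ran from -0.02 to 0.12 and Krt19 from 0.00 to 0.24 with 1 array left out.

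Counts of called genes for E2 in wild types, its difference from nulls, receptor loss with placebo and receptor loss with E2 were 70, 36, 16 and 102, and became 32, 18, 7 and 39 with median scaling and 41, 10, 2 and 35 with only animals numbered 750 or above. For E2 in wild types alone it was 46 with only the compared groups. Under placebo it was 8 with only the compared groups or without a filter, 9 with slide as a block, and 6 to 46 with 1 array left out (46 without null placebo animal 3, 6 without wild-type placebo animal 3, 9 without null placebo animal 2, 10 without null placebo animal 4 and 10 without null E2 animal 3). With E2 it was 67 to 120 with 1 array left out (67 without wild-type E2 animal 5 or null E2 animal 2). Replicate numbers did not pair the animals (correlations of deviations from -0.16 to 0.25 over all 4 pairs of groups; between wild-type E2 and null E2 they were 0.07 to 0.22, with 4 of 5 over 0.1); with them as a replicate block the counts of called members remained 2, 0, 2, 0 and 2, and 90 genes were called for E2 in wild types.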
